A study of Rattus norvegicus with 64 samples.

Results

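Toll-like receptors and inflammasome genes were followed in rat urinary bladder walls reconstructed using bladder acellular matrix (BAM), the bladder wall left after its cells are removed. The 10 genes were Tlr2, Tlr3, Tlr4, Tlr5, Tlr7, Tlr9, Myd88, Nlrp3, Casp1 and Pycard, out of 15715 genes that could be named. They were taken by matching the RefSeq transcript of each array probe to these gene symbols, and 11 of 30367 gene probes matched. Each gene had 1 probe except Tlr3, which had 2. Total RNA of the reconstructed wall was hybridized to 64 1-color Agilent arrays, 8 for each of 8 groups, and the arrays of a group were labelled as biological replicates. All rats were male Wistar rats that underwent hemicystectomy and augmentation with a graft of about 1 square centimetre. In 4 groups the graft was BAM only, and in 4 it was BAM carrying 10000000 adipose-derived stromal cells (ASCs, named stem cells in the labels), grown to the third passage from retroperitoneal fat of male Wistar rats aged 10 weeks. The latter are called seeded BAM. Bladders were harvested at 7, 30, 90 or 180 days. The age of the grafted rats was not given in the sources used here, and no unoperated bladder was among the samples, so each group was read against the other graft or against another day.

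Toll-like receptors (TLRs) recognize microbial products and molecules released by damaged cells. Tlr2, Tlr4 and Tlr5 sit at the cell surface, Tlr3, Tlr7 and Tlr9 sense nucleic acids in endosomes, and all of these except Tlr3 signal through the adaptor Myd88 to NF-kappa B. The Nlrp3 inflammasome joins the sensor Nlrp3, the adaptor Pycard and the protease Casp1, which cuts the precursors of interleukin-1 beta and interleukin-18. In the bladder wall these genes are known from urothelium, stromal cells and the leukocytes that enter after injury.

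Tlr2, the gene called at day 7, and Myd88, the adaptor it signals through, are shown with the 250 bases before their start sites (RefSeq, GRCr8), read 5′ to 3′ on the strand of the gene. Tlr2 lies on the minus strand at chr2:171504558-171504807 and Myd88 on the minus strand at chr8:127956231-127956480. Capitals mark matches, on either strand, to the kappa B consensus, an interferon-stimulated response element (ISRE), an AP-1 element (TGANTCA) and a PU.1 core (GAGGAA).
Tlr2: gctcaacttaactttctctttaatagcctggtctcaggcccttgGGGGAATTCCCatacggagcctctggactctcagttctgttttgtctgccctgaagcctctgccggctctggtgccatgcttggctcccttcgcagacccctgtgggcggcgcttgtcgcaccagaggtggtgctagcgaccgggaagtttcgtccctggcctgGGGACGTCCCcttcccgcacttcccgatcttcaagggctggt
Myd88: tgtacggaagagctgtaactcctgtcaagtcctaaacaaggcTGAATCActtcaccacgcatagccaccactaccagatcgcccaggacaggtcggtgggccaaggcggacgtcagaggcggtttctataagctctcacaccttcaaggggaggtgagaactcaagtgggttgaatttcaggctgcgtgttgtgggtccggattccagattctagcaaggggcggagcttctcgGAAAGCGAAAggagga

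The Tlr2 window held kappa B matches from -206 to -196, where 2 matches overlap, and from -42 to -33, counted from the start site. Tlr2 was the only 1 of the 10 genes with such a match, which 6.33% of 33469 promoter windows of the same length held. The Myd88 window held an ISRE match from -16 to -7, found in 3.41% of the windows, and an AP-1 match from -208 to -202, found in 6.34%. The PU.1 core was in neither of these windows, in 6 of the 10 windows and in 23.3% of all of them. A match describes the letters and does not show that a factor was bound.

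Levels are log2 signals relative to the 75th percentile of the same array. They compare 1 gene between groups and not 1 gene with another. Differences are on the same log2 scale, seeded BAM minus BAM only, and came from limma over all 64 arrays with Benjamini-Hochberg adjustment over 30367 probes. A gene was called where the adjusted p was under 0.01 and the groups differed by over 1.5-fold. Adjusted p throughout are those of limma. Each of the 8 slides carried 1 group, and the slide cannot be told apart from it. Days 7 and 30 shared a scan date, days 90 and 180 shared another, and the share of gene spots well above background ran from 73.3 to 95.6% on the former and from 35.5 to 64.6% on the latter. Therefore changes from day 30 to day 90 and the scan date cannot be told apart. The median local background ran from 321 to 365.5 on the BAM day 90 slide and from 99 to 120 on the seeded day 90 slide. On the BAM day 180 slide it ran from 138 to 171. Its part in calls near background was not tested. Markers of smooth muscle were well above background on all arrays of every group (7 of 7), as were 6 or 7 of 7 measured markers of urothelium.

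Of the 64 arrays, 4 stood apart from their own group, with a median correlation below 0.95 to its other arrays. They were BAM day 7 replicate 7 (0.935), seeded BAM day 30 replicate 1 (0.902) and BAM day 90 replicates 5 (0.936) and 8 (0.892). Counts without these 4 arrays are given beside the counts they change.

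At 7 days, Tlr2 was lower with seeded BAM and was the only 1 of the 10 genes called, a share near the 7.73% of all probes called (5.62% called lower). At 30 days no gene was called (background 1.67%), at 90 days only Nlrp3 was called, at a signal that was not well above background in either group (background 12.5%, 8.6% lower), and at 180 days none was called (background 2.44%). At an unadjusted p under 0.05, limma gave 5 of 10 genes at 30 days and 0 at 180 days. Analysis of variance called 0 at both. Throughout, it is the same fit of 8 group means without sharing the spread between probes, and so not a separate method. The share of all probes at an unadjusted p was not counted, here or below, so such counts are not read as an excess. The limma count at 30 days became 1 without the 4 arrays, by the call of Pycard. That at 90 days became 3, as Tlr2 and Casp1 joined Nlrp3. Over all 30367 probes the calls went from 508 to 852 at 30 days and from 3791 to 3369 at 90 days. The counts of the 10 genes at 7 and 180 days were 1 and 0 with and without the 4 arrays. Without regard to the test, the differences of 8, 8, 8 and 2 of the 10 genes were below 0 at 7, 30, 90 and 180 days, against 69.1, 37, 67 and 40.8% of all probes. The median difference of the 10 genes was -0.32, -0.38, -0.33 and 0.05 at these days, beside -0.16, 0.11, -0.27 and 0.06 for all probes. At 30 days the median of all probes was 0.0069 without the 4 arrays, -0.0066 with quantile normalization and 0.019 with dim probes left out.

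**Figure D1:**
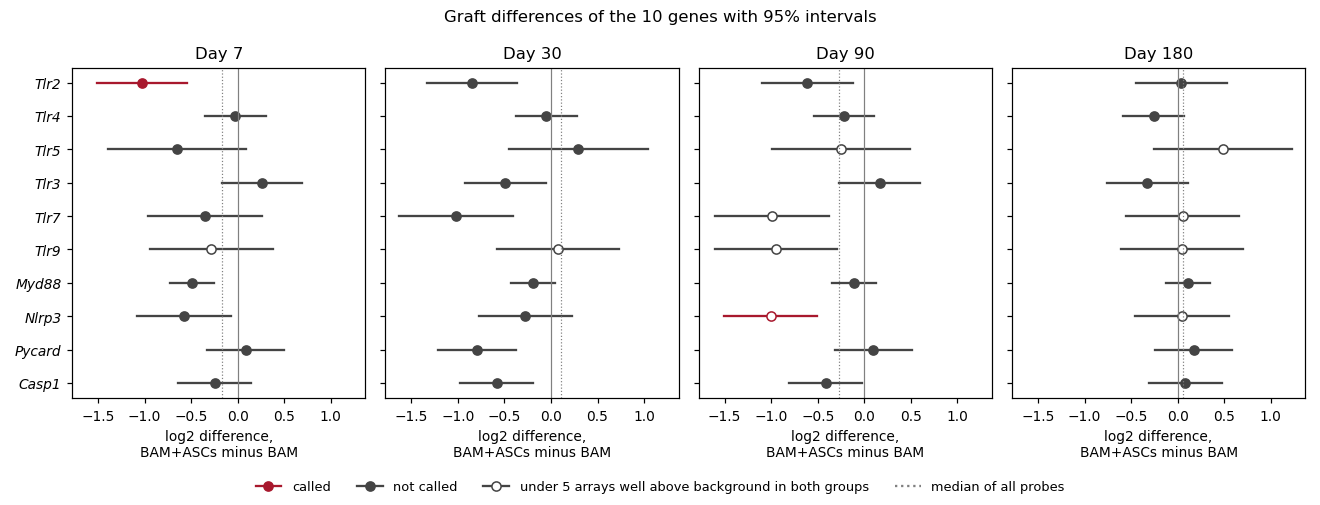
Differences in log2 level, seeded BAM minus BAM only, for the 10 genes at each day (points), with 95% intervals (lines), 0 (solid line) and the median of all probes (dotted line), open where under 5 arrays of each group were well above background. Tlr2 at day 7 and Nlrp3 at day 90, in red, are the called genes, and Nlrp3 at day 90 is open.

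Tlr2 binds bacterial lipoproteins as a pair with Tlr1 or Tlr6. At day 7 its level ran from 2.56 to 3.96 (median 3.22) with BAM only and from 1.85 to 2.81 (median 2.22) with seeded BAM. The lowest BAM array lay within the seeded range, and 7 of the 8 seeded arrays were below every BAM array. The difference was -1.03 ± 0.24 (SE, n = 8 per group), or 2.04-fold lower, with an adjusted p of 0.0016 in limma. Relative to the median of all probes it was -0.86. It stayed between -1.03 and -0.93 over 12 settings, counting the one used and every alternative other than leaving out 1 array.

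Markers of several cell types moved with this difference. The summed linear level of neutrophil markers ran from 13.6 to 94.5 with BAM only and from 7.36 to 27.3 with seeded BAM, 7 of 8 markers had a lower mean in the seeded bladders and 1 was called lower. In each group, 6 of these 8 markers were well above background on all arrays. Macrophage markers had a summed level of 83.4 to 183 with BAM only and 80.0 to 118 with seeded BAM, with 8 of 10 means lower and none called. Urothelial markers were higher with seeded BAM, with 5 of 7 called and a summed level of 2.18 to 103 with BAM only and 38.9 to 148 with seeded BAM. Endothelial markers all had a lower mean, 2 of 5 were called lower, and their summed level ran from 15.3 to 26.8 with BAM only and from 10.8 to 15.8 with seeded BAM. Of the mesenchymal stromal markers, 1 of 6 was called lower. All 6 T cell markers had a lower mean, with 0 called. Their part in the Tlr2 difference was not tested. In these bulk samples, fewer cells of a type and less RNA per cell cannot be told apart.

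At day 30 the Tlr2 level ran from 2.31 to 2.71 (median 2.42) with BAM only and from 0.88 to 1.93 (median 1.70) with seeded BAM. The ranges did not overlap, as for 0.873% of all probes in this direction. The difference of -0.85 ± 0.24 had an adjusted p of 0.022 in limma and was not called. In a fit of these 2 groups alone the adjusted p was 0.0034. At day 90 the levels ran from -0.77 to 1.38 (median 0.59) and from -0.98 to 0.45 (median -0.05), a difference of -0.61 ± 0.24 with an adjusted p of 0.044. Without BAM day 90 replicate 5, the lowest BAM array, it was -0.79 and called (adjusted p = 0.0098). At day 180 the groups lay over each other, from -1.06 to 0.59 with BAM only and from -1.56 to 0.63 with seeded BAM, and the 95% interval of the difference was -0.45 to 0.53.

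Over follow-up Tlr2 was lower late than early. In BAM-only bladders it fell at each step, by 0.83 from day 7 to 30 (adjusted p = 0.0095), by 2.00 from day 30 to 90 (adjusted p = 3.4e-10, 4.01-fold) and by 0.97 from day 90 to 180 (adjusted p = 0.0017). In bladders with seeded BAM it fell by 1.77 from day 30 to 90 (adjusted p = 2.8e-08, 3.41-fold), and the difference from day 7 to 30 was -0.65 (adjusted p = 0.039). The ranges of days 30 and 90 did not overlap in either graft, as for 4.2% (BAM only) and 6.24% (seeded BAM) of all probes in this direction. All 16 arrays of days 7 and 30 were above all 16 of days 90 and 180 in each graft, as they were for Myd88. This split is also that of the scan dates, and the share of all probes with it was not counted. In the order of the 8 groups, BAM day 7 was highest and both day 180 groups lowest, and no neighbors in that order had separate ranges.

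**Figure D2:**
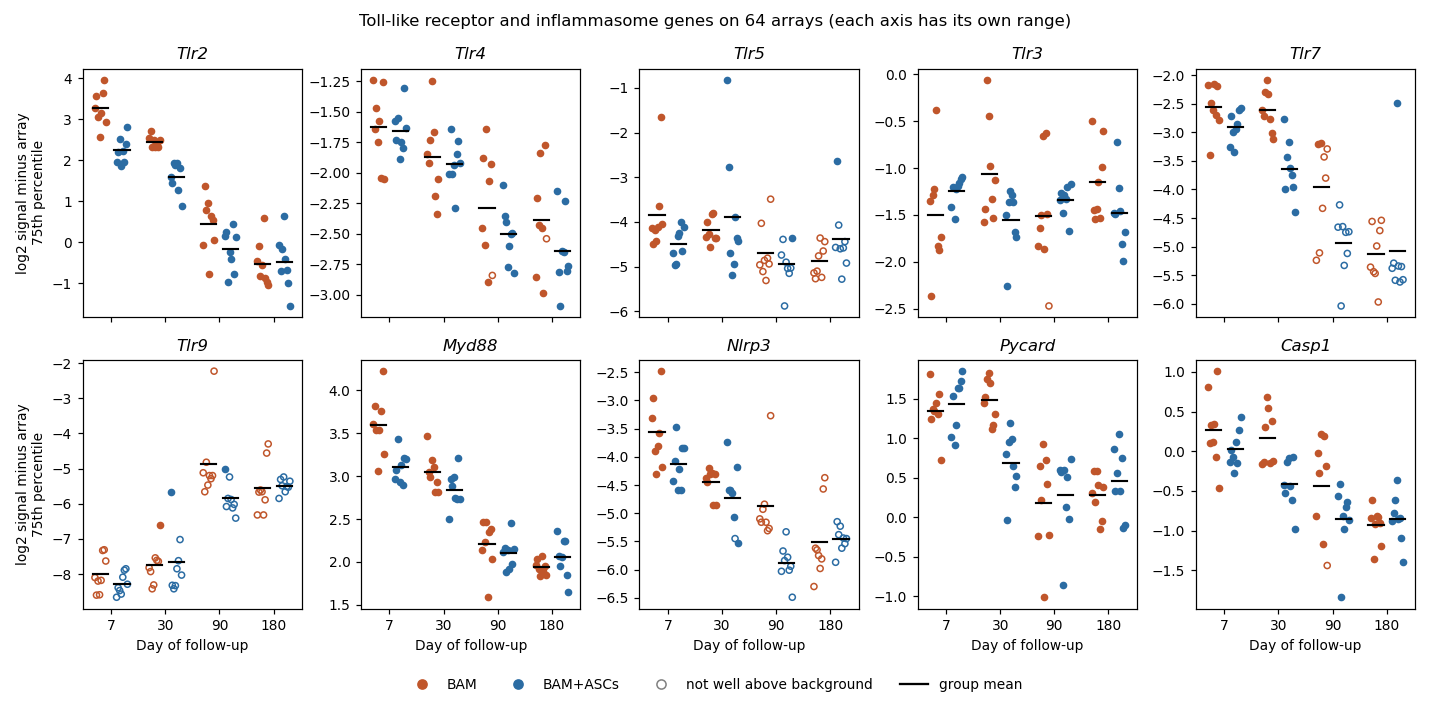
Levels of the 10 genes on the 64 arrays by day of follow-up (log2 signal relative to the array's 75th percentile), with 1 point per array, open where the gene was not well above background, and the mean of each group as a bar. Tlr2 and Myd88 descend from day 7 to day 180 in both grafts, and Tlr5, Tlr7 and Nlrp3 are mostly open at days 90 and 180.

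Tlr4, the receptor for bacterial lipopolysaccharide, was not called between the grafts at any day. Its mean level was -1.63 ± 0.31 and -1.65 ± 0.18 (SD) at day 7 with BAM only and seeded BAM, and -1.88 ± 0.34 and -1.93 ± 0.19 at day 30. It was well above background on 62 of 64 arrays. The 95% intervals of the graft difference were -0.35 to 0.30, -0.37 to 0.28, -0.54 to 0.11 and -0.58 to 0.07 at days 7, 30, 90 and 180. Its sign at day 7 turned to 0.060 when the 75th percentile was taken over detected probes. Over 12 settings the difference ran from -0.41 to -0.17 at day 90 and from -0.34 to -0.15 at day 180. With seeded BAM, Tlr4 was 0.58 lower at day 90 than at day 30 (adjusted p = 0.0026, 1.49-fold), just under the fold threshold. No other step of Tlr4 had an adjusted p below 0.01.

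Tlr5 recognizes flagellin. It was well above background on all 8 arrays of each group at days 7 and 30 and on 2 of 32 arrays at days 90 and 180. At day 7 it ran from -4.49 to -1.65 (median -4.13) with BAM only and from -4.97 to -3.99 (median -4.47) with seeded BAM, and at day 30 from -4.57 to -3.79 (median -4.30) and from -5.18 to -0.82 (median -4.40). The high ends of the first and the last of these ranges were BAM day 7 replicate 7 and seeded BAM day 30 replicate 1, both among the 4 arrays that stood apart. Without them the differences at days 7 and 30 were -0.34 and -0.14, against -0.65 (adjusted p = 0.24) and 0.30 (adjusted p = 0.65) with them. No Tlr5 difference was called.

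Tlr3, the sensor of double-stranded RNA, had group means between -1.55 and -1.06 in all 8 groups. No neighbors in their order had separate ranges, and no step or graft difference was called. At day 30 the level ran from -1.58 to -0.06 (median -1.23) with BAM only and from -2.26 to -1.24 (median -1.43) with seeded BAM, a difference of -0.49 ± 0.22 (adjusted p = 0.14). The sign of the day 90 difference depended on the probe, 0.16 for the brighter and -0.13 for the dimmer 1. At day 180 the dimmer probe differed by -0.59 (adjusted p = 0.075) and the brighter by -0.33 (adjusted p = 0.60).

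Tlr7, the sensor of single-stranded RNA, was lower with seeded BAM at day 30 on most arrays. Its level ran from -3.12 to -2.08 (median -2.66) with BAM only and from -4.40 to -2.76 (median -3.69) with seeded BAM. All but 1 of the seeded arrays were below every BAM array. The difference of -1.02 ± 0.31 (2.03-fold) had an adjusted p of 0.027 and was not called, and with normexp background correction it was -0.73 and called (adjusted p = 0.0052). At day 7 the difference was -0.35 (adjusted p = 0.48), with overlapping ranges.

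Later, Tlr7 left the measurable range. It was well above background on 2 of 8 BAM arrays and on none of the seeded arrays at day 90, and on 1 of 16 arrays at day 180. From day 30 to 90 its signal fell by 1.33 in BAM-only bladders, with separate ranges (adjusted p = 0.00014). Only 2 of the 8 day 90 arrays measured it, so this size rests mostly on signal near background. With seeded BAM it was called lower over this step (adjusted p = 0.00035), with a bound of 2.47-fold. A bound, written as at least a fold, sets the mean of the brighter group against the dim group. Each dim array is raised to at least the lowest signal of any probe well above background on that array. No dim array was raised for Tlr7, so its bound equals the plain estimate. The 95% interval of that estimate was -1.92 to -0.69 on the log2 scale. Bounds do not allow for the spread between arrays. From day 90 to 180 Tlr7 was called lower with BAM only (adjusted p = 0.0024), and no fold is given, as only 2 of the 8 day 90 arrays measured it. At day 90 the graft difference had an adjusted p of 0.011 and was not called. The adjusted p was 0.48 with normexp correction, 0.47 with quantile normalization and 0.031 in a fit of these 2 groups alone. It fell below 0.01 without BAM day 90 replicate 1, 3 or 5 or seeded BAM day 90 replicate 2 (0.0027, 0.0036, 0.0098 and 0.0074).

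Tlr9, the sensor of unmethylated CpG DNA, was well above background on 3 of 64 arrays. Its probe passed the call threshold upward from day 30 to 90 with BAM only (adjusted p = 7.1e-11) and with seeded BAM (adjusted p = 6.5e-06). No size is given, since 1 array per group at most was well above background on either side. This step crossed the change in scan date.

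**Figure D3:**
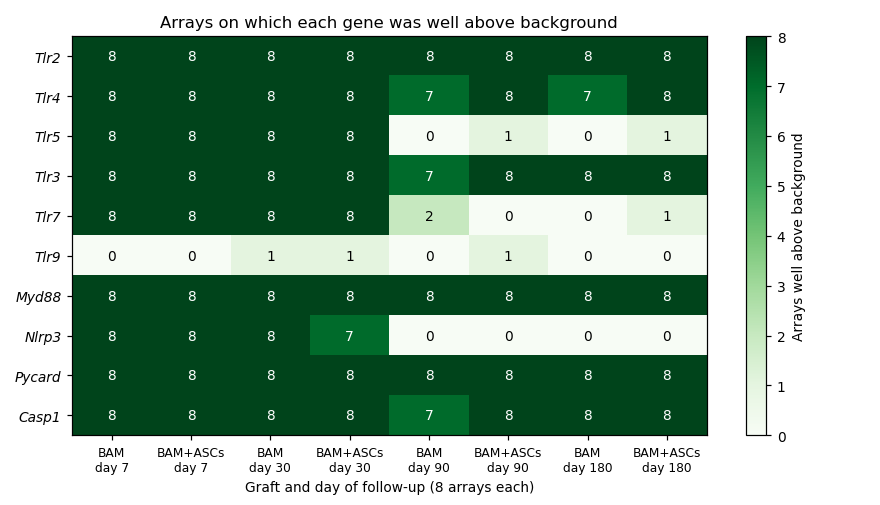
Number of arrays out of 8 on which each gene was well above background (rows, genes; columns, graft and day of follow-up). Tlr2, Myd88 and Pycard count 8 in all groups, Tlr9 at most 1, and Tlr5, Tlr7 and Nlrp3 go from 7 or 8 at days 7 and 30 to 2 or fewer at days 90 and 180.

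Myd88 moved in the direction of Tlr2 with a smaller span. At day 7 its level ran from 3.06 to 4.22 (median 3.57) with BAM only and from 2.89 to 3.43 (median 3.10) with seeded BAM, and 3 of 8 seeded arrays were below every BAM array. The difference of -0.49 ± 0.12 had an adjusted p of 0.0018 in limma, but at 1.41-fold it was under the fold threshold and so not called. At days 30, 90 and 180 the differences were -0.20, -0.11 and 0.12, with adjusted p of 0.29, 0.46 and 0.83.

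The change in the graft difference between days was itself tested, for each pair of days, at an adjusted p below 0.01 with no fold threshold. Myd88 was the only gene of the 10 past it, for day 180 against day 7 (0.61 ± 0.17, adjusted p = 0.00697), where 9.36% of all probes passed. In the other pairs of days none of the 10 passed, against 1.05% (day 30 against 7), 6.95% (90 against 7), 11.4% (90 against 30), 2.68% (180 against 30) and 11.3% (180 against 90) of all probes. For Tlr2 the same contrast was 1.07 ± 0.34 with an adjusted p of 0.024. The Myd88 result lost its call with normexp, quantile, detected-probe or series matrix values, and in fits of the groups compared alone. It also lost it without any 1 of BAM day 7 replicates 2, 6 and 7, seeded BAM day 7 replicates 1, 4 and 6, BAM day 180 replicates 4 and 6, or seeded BAM day 180 replicates 1, 2, 5 and 6, which left 0 genes past the threshold.

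From day 30 to 90 Myd88 fell by 0.83 with BAM only (adjusted p = 2.2e-08, 1.78-fold) and by 0.75 with seeded BAM (adjusted p = 7.0e-07, 1.68-fold), with separate ranges in both grafts. In the order of the 8 groups this was also the only place where neighbors were apart, between seeded BAM at day 30 (2.84 ± 0.22) and BAM at day 90 (2.21 ± 0.29). The groups of days 90 and 180 lay between 1.94 and 2.21.

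Among the inflammasome genes, Nlrp3 was well above background on 31 of 32 early arrays and on no late array. At day 7 it ran from -4.30 to -2.48 (median -3.69) with BAM only and from -4.59 to -3.47 (median -4.15) with seeded BAM, a difference of -0.58 ± 0.25 (adjusted p = 0.11) with overlapping ranges. The highest value was BAM day 7 replicate 7, without which the difference was -0.42. In BAM-only bladders Nlrp3 fell by 0.89 from day 7 to 30 (adjusted p = 0.0066, 1.85-fold). With seeded BAM it was at least 2.03-fold lower at day 90 than at day 30 (adjusted p = 0.00013).

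At day 90 the Nlrp3 signal ran from -5.31 to -3.27 (median -5.13) with BAM only and from -6.49 to -5.33 (median -5.89) with seeded BAM. The ranges did not overlap, as for 1.92% of all probes in this direction, and limma called it (adjusted p = 0.0019). No size of the difference is given because none of the 16 arrays was well above background. The adjusted p was 0.95 with normexp correction and 0.023 with quantile normalization. It was 0.012 without BAM day 90 replicate 8, whose -3.27 was far above the next array at -4.84. The share of gene spots well above background had a median of 54.1% with BAM only and 60.7% with seeded BAM at that day. The median local background ran from 321 to 365.5 with BAM only and from 99 to 120 with seeded BAM. Their part in the difference was not tested.

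Pycard, the adaptor that joins Nlrp3 to Casp1, was alike in both grafts at day 7 and lower with seeded BAM at day 30 on most arrays. At day 7 it ran from 0.73 to 1.81 (median 1.35) and from 0.92 to 1.85 (median 1.59), and the 95% interval of the difference was -0.33 to 0.50. At day 30 it ran from 1.12 to 1.83 (median 1.49) with BAM only and from -0.03 to 1.20 (median 0.72) with seeded BAM, where 7 of 8 arrays were below every BAM array. The difference of -0.80 ± 0.21 (1.74-fold) had an adjusted p of 0.0122 and just missed the call. It was called without the 4 arrays (-0.81, adjusted p = 0.0052), in a fit of these 2 groups alone (adjusted p = 0.00997) and with dim probes left out (adjusted p = 0.0095), and also without seeded BAM day 30 replicate 4 or 5 or BAM day 30 replicate 7 (-0.87, -0.84 and -0.84).

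Casp1 gave a difference of the same sign at day 30. Its level ran from -0.16 to 0.68 (median 0.09) with BAM only and from -0.98 to -0.07 (median -0.43) with seeded BAM, and 5 of 8 seeded arrays were below every BAM array. The difference was -0.58 ± 0.20 with an adjusted p of 0.052. At day 90 it was -0.42 (adjusted p = 0.085), and without the 4 arrays -0.71 and called (adjusted p = 0.0028).

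Leukocyte markers were lower with seeded BAM at day 30 too. The summed level of Ptprc, Coro1a, Laptm5 and Itgb2 ran from 64.5 to 82.3 with BAM only and from 26.8 to 65.4 with seeded BAM, and that of 10 macrophage markers from 102 to 149 and from 51.4 to 112. All 4 leukocyte markers and 9 of 10 macrophage markers had a lower mean with seeded BAM, none was called, and in each group 9 macrophage markers were well above background on all arrays. All 6 T cell markers had a lower mean too, with 0 called. Neutrophil markers went the other way, with medians of 0.75 and 1.81. All 7 measured urothelial markers had a higher mean with seeded BAM, with 0 called. Their summed level ran from 56.1 to 133 with BAM only and from 120 to 200 with seeded BAM. The part of these markers in the differences of Tlr2, Tlr7, Pycard and Casp1 was not tested. At day 90, 2 of 7 smooth muscle markers were called higher with seeded BAM and 1 of 5 endothelial markers lower. All 8 neutrophil markers had a lower mean and all 7 urothelial markers a higher 1, with 0 called. Their part was not tested either.

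The inflammasome genes differed in the steps at which they were called. In BAM-only bladders Pycard fell 2.46-fold (adjusted p = 3.0e-07) and Casp1 by 0.61 (adjusted p = 0.0059, 1.52-fold) from day 30 to 90. With seeded BAM the fall of Pycard was called earlier, from day 7 to 30 (0.75, adjusted p = 0.0059), and from day 30 to 90 its change was -0.40 (adjusted p = 0.10). Casp1 was called at no step with seeded BAM (-0.44, -0.44 and 0.0032, adjusted p of 0.081, 0.054 and 0.99). Nlrp3, called lower from day 7 to 30 with BAM only, had an adjusted p of 0.13 there from day 30 to 90. A difference in timing between the grafts was not shown, as the graft difference of Pycard at day 90 minus that at day 30 was 0.89 with an adjusted p of 0.019.

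The calls by step can be set against all probes. From day 7 to 30, 2 genes were called with BAM only, Tlr2 and Nlrp3 (background 8.65%, 4.21% lower), and 1 with seeded BAM, Pycard (background 8.06%, 1.4% lower). From day 30 to 90, 5 genes were called lower and Tlr9 higher with BAM only (9.49% of all probes lower, 35.2% higher, 44.7% in all), and 4 lower and Tlr9 higher with seeded BAM (10.3% lower, 17.8% higher, 28.1% in all). The 4 genes lower in seeded BAM were Tlr2, Tlr7, Myd88 and Nlrp3, and the 5 in BAM only were Tlr2, Tlr7, Myd88, Pycard and Casp1. The background of this step depended on dim probes. With these left out, 2805 of 20036 probes were lower and 2039 higher with BAM only, and 3060 and 1845 with seeded BAM. From day 90 to 180, Tlr2 and Tlr7 were lower with BAM only (background 9.39%, 4.17% lower) and no gene was called with seeded BAM (background 4.14%), where limma gave 0 at an unadjusted p under 0.05 and analysis of variance 0 calls.

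Libraries decided some of these counts. From day 7 to 30 with BAM only the count was 0 without any 1 of BAM day 7 replicates 1, 2, 6 and 7 or BAM day 30 replicates 2, 6 and 8, and 1 (Nlrp3) without BAM day 7 replicate 3 or 5, BAM day 30 replicate 3, 4, 5 or 7, or the 4 arrays together. The Pycard call with seeded BAM was lost without any 1 of day 7 replicates 2, 5, 6, 7 and 8 or day 30 replicates 2, 6, 7 and 8. Cell type markers moved with these steps, and their part was not tested. From day 7 to 30 with BAM only, 6 of 8 neutrophil markers were called lower and 1 higher, 4 of 5 endothelial and 3 of 6 mesenchymal stromal markers lower, and 4 of 7 urothelial and 2 of 7 smooth muscle markers higher. With seeded BAM, 3 neutrophil markers and 1 endothelial marker were lower over that step, 1 urothelial and 1 smooth muscle marker were higher, and 1 macrophage marker went each way. All 4 leukocyte markers were called lower from day 30 to 90 in both grafts. Of 10 macrophage markers, 7 were lower and 1 higher with BAM only, and 3 were lower with seeded BAM. Of 7 smooth muscle markers, 5 were higher with BAM only and 7 with seeded BAM. Of 8 neutrophil markers, 2 were higher with BAM only, and 3 were lower and 1 higher with seeded BAM. From day 90 to 180 with BAM only, 3 of 6 T cell, 2 of 3 B cell and 1 of 5 endothelial markers were called lower. Over that step 1 of 7 smooth muscle markers was called higher.

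The wider pathway was described by 68 measured genes of 86 listed, comprising other TLRs, receptor cofactors, adaptors and kinases, transcription factors, negative regulators, other sensors, and caspases with the interleukin-1 family. At day 7, 6 of the 68 were called lower with seeded BAM and none higher, beside 5.62% of all probes lower. The count was 3 without the 4 arrays (Il1rap, Il1rl1 and Lbp) and 2 with quantile normalization or in a fit of these 2 groups alone (Lbp and Mefv). Of all probes, 1662, 794 and 1885 were called lower in these 3 runs, against 1707 in the main run. The median difference was -0.21, beside -0.16 for all probes. The largest of the 6 were Nlrp12, a sensor of the Nlrp family, at -1.38 (adjusted p = 0.0035), Lbp, the lipopolysaccharide-binding protein, at -1.36 (adjusted p = 0.0001) and Il1rl1, the interleukin-33 receptor, at -1.34 (adjusted p = 0.0031). Il1rap, a co-receptor of the interleukin-1 and interleukin-33 receptors, differed by -1.33 and was well above background on 3 of 8 seeded arrays. Mefv, which encodes pyrin, differed by -1.18, and Tlr6, a partner of Tlr2, by -0.71. The ranges overlapped for all 6. Il1r2, the decoy receptor of interleukin-1, differed by -1.40 (adjusted p = 0.014) and was not called, and was called with normexp correction and with the replicate number as a block.

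At day 30, only Ninj1, which acts in the rupture of the membrane of dying cells, was called. It ran from 2.11 to 2.27 with BAM only and from 1.00 to 1.86 with seeded BAM, with separate ranges and a difference of -0.78 ± 0.18 (adjusted p = 0.0044). The median of the 68 genes was -0.25, beside 0.11 for all probes, which became 0.0069 without the 4 arrays. At day 90 Cyld, a deubiquitinase that restrains NF-kappa B, was higher by 0.64 (adjusted p = 0.0033). Tlr11, named after its value was seen, was called lower (adjusted p = 0.0021), well above background on 3 BAM arrays and on no seeded array. Neither was called with normexp correction or in a fit of these 2 groups alone. Without the 4 arrays, Irf5, Ninj1 and Tlr6 were called lower and none higher, beside 2015 lower and 1354 higher of all 30367 probes. At day 180 none was called by limma, with or without them, nor by analysis of variance, and 4 of 68 had an unadjusted p under 0.05.

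Of the products of the inflammasome, Il1b encodes interleukin-1 beta. It ran from 2.47 to 5.17 (median 3.75) at day 7 with BAM only and from 2.04 to 3.73 (median 2.49) with seeded BAM, a difference of -1.13 with an adjusted p of 0.16. Il18 differed most at day 30 (-1.14, adjusted p = 0.016). Neither was called at any of the 4 days, and Il18 was called at day 30 with normexp correction.

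The 3 largest called changes of each step are given, without a size where fewer than 4 arrays in each group measured the gene. In BAM-only bladders, Il1r2 fell by 4.21 from day 7 to 30, a fold change of 18.5, while Nlrp12 fell by 2.83 and Il1b fell by 2.23. From day 30 to 90, Il1rl1 was at least 10.5-fold lower, Il1rn, the receptor antagonist, fell by 2.93 and Il1b fell by 2.39. From day 90 to 180 Il18 fell by 1.13, while Tlr11 (adjusted p = 0.0023) and Irak4, a kinase recruited by Myd88 (adjusted p = 0.0032), were called lower, well above background on 3 and 2 of the 8 day 90 arrays.

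With seeded BAM, Il1r2 fell by 2.21 and Nfkbia, the inhibitor of NF-kappa B, fell by 0.88 from day 7 to 30, while P2rx7, the ATP receptor upstream of Nlrp3, was at least 2.64-fold higher. From day 30 to 90 Il1rl1 was at least 10.1-fold lower, Il1b fell by 2.91 and Il1a fell by 2.53. Lower genes outnumbered higher ones from day 30 to 90, at 25 to 3 with BAM only (beside 9.49% of all probes lower and 35.2% higher) and 16 to 2 with seeded BAM (10.3 and 17.8%). Without the 4 arrays these were 19 to 1 and 18 to 4, and at a 2-fold threshold 15 to 2 and 12 to 0. Of all probes, 3080 were lower and 10247 higher with BAM only without the 4 arrays, and 2929 and 8512 with seeded BAM. At a 2-fold threshold these numbers were 1200 and 9340, and 1736 and 4184. With dim probes left out the counts of pathway genes were 25 to 1 and 16 to 2. Of the 20036 probes then kept, 2805 were lower and 2039 higher with BAM only, and 3060 and 1845 with seeded BAM. From day 7 to 30 the counts were 7 lower and 3 higher with BAM only, 6 and 6 without the 4 arrays, and 5 lower and 4 higher with seeded BAM, beside 8.65 and 8.06% of all probes called in either direction. With normexp these were 7 and 1, and 4 and 1, and at a 2-fold threshold 4 and 2, and 1 and 1. From day 90 to 180 they were 7 lower and 1 higher with BAM only, beside 9.39% of all probes called (4.17% lower). These became 1 and 0 in a fit of these 2 groups alone, 2 and 0 at a 2-fold threshold, and 4 and 0 with normexp. With seeded BAM none was called, while 9 had an unadjusted p under 0.05 in limma and analysis of variance called 0.

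**Figure D4:**
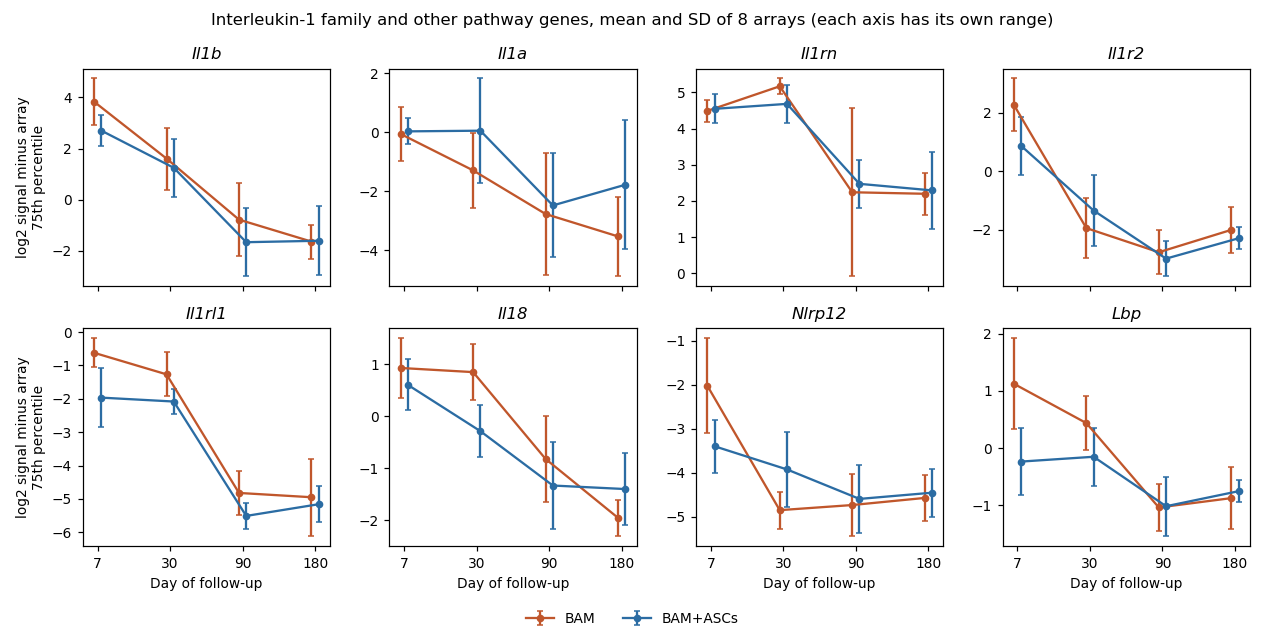
Levels of 6 genes of the interleukin-1 family and its receptors, Nlrp12 and Lbp by day of follow-up (log2 signal relative to the array's 75th percentile), as means with the SD of 8 arrays in each graft. Il1b, Il1r2 and Nlrp12 are highest at day 7 with BAM only, and Il1rl1 lies between -5.51 and -4.82 at days 90 and 180.

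Within groups, the arrays varied together for several of the genes. Over the deviations of the 64 arrays from their group means, Pearson's r was 0.69 between Tlr2 and Myd88 and 0.73 between Casp1 and Pycard. With Ptprc, the common leukocyte antigen, r was 0.84 for Pycard, 0.78 for Tlr2 and 0.75 for Casp1, but 0.27 for Tlr4. These are descriptions over arrays that share slides and scaling.

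Among 11167 other genes, those most like Tlr2 by this measure were Ncf4 (0.85), Gmfg (0.84) and P2ry6 (0.84), and genes like Pycard included Sla (0.90) and Coro1a (0.86). For Casp1 they were Ifi47, Grk6 and Slfn2 (0.83 to 0.84), for Myd88 Tpm3, Il17ra and Arpc5 (0.78 to 0.79) and for Tlr7 Exo5, Gpr65 and Samsn1 (0.67 to 0.71). The values were lower for Tlr4, with Rpe, Yme1l1 and C11h3orf38 (0.61 to 0.66), and for Tlr3, with Slc27a3, Fcgr3a and Mx1 (0.64 to 0.65). Tlr5 was most like Lekr1, Abcb4 and Rab33a (0.78 to 0.81), and was well above background on 34 of the 64 arrays. Its values in BAM day 7 replicate 7 (-1.65, group mean -3.84) and seeded BAM day 30 replicate 1 (-0.82, group mean -3.89) weigh heavily here. Both are among the 4 arrays that stood apart, and no correlation was taken without those. Over the 64 arrays as they are, without removing group means, r was 0.97 for Tlr2 with Ncf4 and 0.95 for Pycard with Sla.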

How the data were processed

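Gene expression was measured in 64 arrays, labelled as biological replicates and grouped by the graft and day in the labels. For each array the authors deposited the scanner table of Agilent Feature Extraction 12.0.1.1, whose processed signal is a background-corrected, linear intensity that was not scaled between arrays. Intensity values of the deposited series matrix served as an alternative only. In it, seeded BAM day 7 replicates 2, 3 and 4 differed from the scanner by a median log2 ratio of -3.29, -3.30 and -3.30. BAM day 180 replicate 1 had 26650 empty spots there and was left out of that run. The probe design used build rn4, and probes were named through RefSeq accessions of the GRCr8 table.

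Control spots and outlier spots were dropped, the processed signal was log2 transformed, and the 75th percentile of each array was subtracted. Spots of a probe were averaged, and the brightest probe of a gene gave its value. A probe was well above background where at least 0.5 of its spots were. In R 4.3.3, limma 3.58.1 was run on the 8 group means with all 64 arrays (56 residual degrees of freedom), at the thresholds of the study's methods. Python 3.11.15 was used for the rest. The number of arrays limits the precision. In simulated day 7 arrays over 30367 probes, 44% of probes changed by 1 and 86% of those changed by 2 on the log2 scale were called, with 1 false call. Only 200 probes were changed, with independent noise, while 2347 were called in the data. The adjustment therefore differs, and these shares do not give the power of the real comparison.

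The 10 genes, the pathway and marker lists and the rule for named genes were chosen with earlier results of these data known. The rule named all 10 genes, pathway genes called in a graft comparison and well above background on all arrays of a group, the 3 largest called changes per step, and the 3 genes with the highest correlation to each of the 10. One gene that this rule names is not reported here. Genes of the lists without a probe were not analysed here. Alternatives were normexp correction with offset 50, quantile normalization, a percentile over detected probes, matrix values, dim or outlier spots, a 2-fold threshold, separate fits, a replicate block, analysis of variance, the second Tlr3 probe and leaving out arrays. Leaving out 4 arrays together was chosen after the data were seen. Levels of the same replicate number did not vary together in every pair (r from -0.31 to 0.62), so the numbers were not used to pair rats. On all 64 arrays the replicate number was also the position on the slide. The replicate block is therefore a block on position and no check of a pairing of rats. Group numbers differ between the labels and the study's methods, so only graft and day assigned an array.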

Additional observations from a re-analysis of the deposited data

Results flagged for a closer look

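In 80 groups of 8 arrays (10 genes, 8 groups each), 6 had 1 array far from the others, where chance gives about 1 in 20. The gap to the nearest array, as a share of the range of the group, was 0.704 for Tlr5 in BAM day 7 replicate 7 (-1.65 against -3.65) and 0.543 for Tlr5 in seeded BAM day 180 replicate 2 (-2.63 against -4.07). It was 0.896 for Tlr7 in seeded BAM day 180 replicate 4 (-2.48 against -5.29). BAM day 90 replicate 8 stood out for Tlr9 (0.754, -2.23 against -4.82) and Nlrp3 (0.774, -3.27 against -4.84). The lowest array was apart for Casp1 in seeded BAM day 90 replicate 3 (0.602, -1.84 against -0.98).

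The graft difference of Myd88 changed between days 7 and 180 by 0.61 in the test of the difference itself (limma adjusted p = 0.00697). The Myd88 difference was -0.49 at day 7 and 0.12 at day 180.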

How the results depend on the processing

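The Tlr2 call at day 7 held in every alternative run. At day 30 the count of called genes, 0, became 1 with normexp correction, 2 in a fit of the 2 groups alone, 1 with dim probes left out and 1 without the 4 arrays. At day 90 the count of 1 became 0 with normexp, quantile normalization, a fit of the 2 groups alone or dim probes left out, and 3 without the 4 arrays. From day 7 to 30 with BAM only, 2 became 0 at a 2-fold threshold and 1 with detected-probe scaling, matrix values, the replicate block, analysis of variance or the 4 arrays left out. With seeded BAM, 1 became 0 at a 2-fold threshold and 2 with quantile normalization or the 4 arrays left out. From day 90 to 180 with BAM only, 2 became 1 at a 2-fold threshold, with normexp, quantile normalization or dim probes left out, and 0 in a fit of the 2 groups alone. From day 30 to 90 with seeded BAM, 5 became 2 with normexp and 3 with quantile normalization or dim probes left out. The 1 gene whose graft difference changed between days became 0 with normexp, quantile normalization, detected-probe scaling, matrix values or fits of the groups alone. With dim probes left out fewer genes are tested, and otherwise the cause was not tested. The number of all probes called also differed between runs. At day 30 it was 375 with normexp and 852 without the 4 arrays, against 508. Counts from alternative runs, here and above, are therefore not read as an excess.

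Leaving out 1 array gave 1 to 1 called genes at day 7, 0 to 1 at day 30, 0 to 3 at day 90 and 0 to 0 at day 180. It gave 0 to 3, 5 to 6 and 2 to 3 for the 3 steps with BAM only, 0 to 1, 5 to 7 and 0 to 0 with seeded BAM, and 0 to 2 for a change between days.

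The signs that turned belonged to differences that were not called. For day 7 these were Tlr4 with detected-probe scaling (0.060) or the 4 arrays left out (0.026) and Tlr9 with matrix values (0.97). For day 30 they were Tlr5 (-0.14) and Tlr9 (-0.21) without the 4 arrays, and Tlr9 with normexp (-0.11) or quantile normalization (-0.12). For day 90 they were Tlr3 by the dimmer probe (-0.13) or without the 4 arrays (-0.055), Tlr5 with quantile normalization (0.70), Tlr9 with normexp (0.062), and Pycard with normexp (-0.018) or without the 4 arrays (-0.17). For day 180 they were Tlr9 with quantile normalization (-0.23) or matrix values (-0.064), and Nlrp3 with quantile normalization (-0.19) or matrix values (-0.067). Leaving out 1 array turned a sign within these ranges: Tlr4, -0.086 to 0.030 at day 7 and -0.12 to 0.040 at day 30; Pycard, -0.0027 to 0.16 at day 7 and -0.073 to 0.26 at day 90; Tlr5, -0.14 to 0.48 at day 30; Tlr9, -0.21 to 0.24 at day 30. At day 180 the ranges were -0.12 to 0.20 for Tlr2, -0.32 to 0.14 for Tlr7, -0.061 to 0.23 for Tlr9 and -0.065 to 0.21 for Nlrp3.

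The replicate number taken as a block gave 1 call from day 7 to 30 with BAM only (Nlrp3), in place of 2, and changed no other call of the 10 genes. The scaling moved the median of all probes at day 90 from -0.27 to 0.00 with quantile normalization and to 0.08 with normexp, and the number of called probes that were lower went with it, 2613 of 3791 against 1754 of 3188 and 569 of 1451. At day 7 it was 1707 of 2347, against 794 of 1394 with quantile normalization and 1266 of 2078 with detected-probe scaling. Tlr5, Tlr7, Tlr9 and Nlrp3 at days 90 and 180 were limited by signal near background.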
